A study of Mus musculus with 148 samples.

Results

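The 7 genes Ms4a1, Ms4a4b, Ms4a4c, Ms4a6b, Ms4a6c, Ms4a6d and Ms4a7 were followed through the immune cells of lungs, metastases and primary tumors of mice carrying EO771 tumors. They were taken by name from the 52634 gene rows of the count tables, and all 7 were found. The family is larger, and 14 other genes of it and of the related Tmem176 pair are given at the end. The 7 were chosen by their levels across myeloid, B and T cell labels and tissues in these data, so their levels and their differences between tissues below are a description and carry no test.

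Ms4a genes encode small proteins that cross the cell membrane several times and sit with other receptors at the cell surface. Ms4a1 encodes CD20, the B cell surface protein that is the target of rituximab, and it is a standard marker of B cells. Ms4a4b is known as a T cell protein that lowers T cell proliferation, and several Ms4a4 and Ms4a6 genes are known from monocytes and macrophages. Ms4a7 is used as a marker of macrophages derived from monocytes. The genes arose by duplication and lie beside each other, so neighbours can be close copies in sequence.

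All mice were C57BL/6 females expressing a photoactivatable GFP, from which cells of a chosen area can be marked by light and then sorted (NICHE-seq). Tumor-bearing mice received 500000 EO771 breast cancer cells labelled with tdTomato at 8 weeks of age. In the relapse-free mice and the mice with metastases the primary tumor was resected 3 weeks later, whereas no resection is listed for the Pre-MET and Primary samples, and the Pre-MET lungs were taken while the mice still carried their tumor. The 63 samples, each a mouse and a tissue, came from 27 mice: Normal lungs of mice without a tumor (n = 3), lungs taken before metastases were seen (Pre-MET, n = 3), lungs of resected mice that stayed without metastasis (Relapse-free, n = 6), primary tumors (Primary, n = 4), and, from mice with lung metastases, Distal normal tissue (n = 14), whole metastasis sections (MET, n = 13), photoactivated metastasis cores (MET Core, n = 13) and photoactivated rims (MET Invasive margin, n = 7). EO771 is a single cell line grown in 1 strain, which limits the groups as a model of metastasis. The 3 Pre-MET mice also gave 3 of the 4 Primary samples. Cells of the core and margin were sorted by their GFP signal as CD31-negative cells, and those of the other tissues as CD31-negative CD45-positive cells, so a core and a primary tumor also differ in the sort. In 1 core the CD45 gate was added, 1 margin sample (mouse 17) carries a photoactivation label of a non-metastatic area, and 2 relapse-free samples mix marked and unmarked cells.

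Values are unique molecular identifiers (UMIs), counts of distinct RNA molecules, summed over the cells of 1 mouse, tissue and cell label, and given as UMIs per 1000000 UMIs of that sum (CPM). The labels are the cell annotation the study deposited, whose names give a cell type and a leading gene. Of 1332 such sums, 510 had at least 10 cells, and these held 20520 of 23425 immune cells under 26 labels. A sum held between 5720 and 731354 UMIs, with a median of 41252. The median sample of a tissue had between 812.25 and 1200.75 UMIs per cell, except for primary tumors at 3524.5. In a sum, fewer cells that use a gene and less RNA of it per cell cannot be told apart.

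The labels were set beside lists of 5 to 7 marker genes, which include genes that some labels are named for. They come from clustering these same counts, so agreement with the lists is a description and not an independent check. The summed B cell markers reached 3728.3 ± 1609.3 CPM (SD, n = 30) in B and 37.14 CPM in the CD4 T cell label T_CD4_Lef1. T cell markers lay between 3249.9 and 6184.1 CPM in the 7 T labels, against 76.66 CPM in B. Monocyte markers lay between 16473.9 and 34290.7 CPM in the 4 monocyte labels, against 599.4 CPM in B. Macrophage markers were at 18356.4 CPM in Mac_Cd81, 19819.8 CPM in Mac_Gpnmb and 4596.6 CPM in Mac_Isg20, but only 548.8 CPM in Mac_Cd9, where the mean was close to that of B (478.6 CPM), so the list did not mark that label.

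On mouse chromosome 19 (mm10) the genes lie within a short stretch. Ms4a1 was annotated at chr19:11249675-11266241 on the minus strand and Ms4a7 at chr19:11321039-11336146, also minus. Ms4a4c (chr19:11404770-11427246), Ms4a4b (chr19:11443553-11467055), Ms4a6c (chr19:11469366-11482192) and Ms4a6b (chr19:11516512-11531256) follow each other on the plus strand, and Ms4a6d (chr19:11586604-11604849) lies on the minus strand. These are the bounds of the whole genes, exons and introns included, in GENCODE vM21.

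Neighbours on the plus strand are the closest copies. The coding sequences of Ms4a4b and Ms4a4c were identical at 91.7% of 678 aligned bases and those of Ms4a6b and Ms4a6c at 85.0% of 642. Ms4a6d was less alike, at 80.6% to Ms4a6b and 77.0% to Ms4a6c. The first 150 coding bases are shown for both pairs of copies, because the pairs split between cell types below. Capitals mark the bases at which the members of a pair differ, 11 in the first pair and 22 in the second (GENCODE vM21, coding strand).
Ms4a4b: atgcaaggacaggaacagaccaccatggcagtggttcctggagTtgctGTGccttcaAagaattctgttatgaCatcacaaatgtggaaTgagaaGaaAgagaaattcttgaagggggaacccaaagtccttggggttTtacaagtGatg
Ms4a4c: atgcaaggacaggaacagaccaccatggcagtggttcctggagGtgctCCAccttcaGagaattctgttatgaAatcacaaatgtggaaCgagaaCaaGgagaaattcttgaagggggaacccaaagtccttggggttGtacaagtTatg
Ms4a6b: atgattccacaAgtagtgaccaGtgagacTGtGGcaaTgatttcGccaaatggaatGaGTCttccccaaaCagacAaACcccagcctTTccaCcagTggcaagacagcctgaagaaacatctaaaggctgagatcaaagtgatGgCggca
Ms4a6c: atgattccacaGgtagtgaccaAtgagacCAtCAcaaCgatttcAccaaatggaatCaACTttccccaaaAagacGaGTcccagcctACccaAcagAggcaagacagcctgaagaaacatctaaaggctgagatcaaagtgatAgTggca
Only the first pair has a long shared start, and the differences of the second are scattered from near its first bases, which raises the question of whether reads can be told apart. Reads that mapped to several places were excluded by the authors, so reads shared by copies were lost and not moved between genes. In the last 500 bases of the transcripts, from which these 3′ libraries are read, 11.8% of the 50-base words of Ms4a4c also occurred in Ms4a4b, and 13.7% of those of Ms4a6c occurred in other genes, Ms4a6b among them. The other 5 members shared no 50-base word in that stretch. Levels of Ms4a4c and Ms4a6c may therefore be understated.

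The 250 bases before the start of Ms4a4b and Ms4a4c are shown because these copies differ most in the cells that hold them (RefSeq, GRCm38.p6, plus strand). The windows lie at chr19:11443308-11443557 for Ms4a4b and chr19:11407411-11407660 for Ms4a4c. The Ms4a4c window, like that of Ms4a6b and the Ms4a7 window at chr19:11334696-11334945, lies inside the GENCODE bounds of the gene given above. Identities and motifs there describe a RefSeq start within those bounds. Capitals mark the octamer ATTTGCAT, found in the Ms4a4c window only.
Ms4a4b: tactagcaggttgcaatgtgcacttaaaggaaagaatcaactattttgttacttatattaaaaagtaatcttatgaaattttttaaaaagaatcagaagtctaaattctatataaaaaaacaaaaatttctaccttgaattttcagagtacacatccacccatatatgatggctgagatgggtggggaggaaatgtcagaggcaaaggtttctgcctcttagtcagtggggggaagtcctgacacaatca
Ms4a4c: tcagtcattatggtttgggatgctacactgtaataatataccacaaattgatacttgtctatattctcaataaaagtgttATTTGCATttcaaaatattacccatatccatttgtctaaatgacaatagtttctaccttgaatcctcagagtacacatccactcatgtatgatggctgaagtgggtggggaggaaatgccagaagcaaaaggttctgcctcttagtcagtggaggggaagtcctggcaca
Over the whole window 67.2% of bases were identical. The 125 bases nearest the start were identical at 87.2%, and the 125 bases farther away at 47.2%. The latter is the level of the other pairs of family windows, Ms4a6b with Ms4a6c left out (42.4% to 47.6%). The 7 family windows are those of Ms4a4b, Ms4a4c, Ms4a6b, Ms4a6c, the further family gene Ms4a4a, and Ms4a7 at both of its listed starts. The Ms4a6b and Ms4a6c windows were identical at 59.6%. The table of promoters held no window for Ms4a1 or Ms4a6d. On both strands, 7 motifs were searched in 300-base windows. ATTTGCAT was in 1.74% of 32851 promoters and in that of Ms4a4c, and ACAGGAAG was in 3.58% and in that of Ms4a6b. The doubled IRF motif (GAAA, any 2 bases, GAAA; 3.44% of promoters), TTCNNNGAA (8.30%), GAGGAAGT (3.20%), TGTGGTTT (1.78%) and CTTTGAT (3.73%) were in none of the 7 family windows, which says only that these letters were not in these windows.

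Across cell labels the members fell into a B cell gene, a T and NK cell gene, 4 genes led by monocytes and macrophages, and 1 gene spread over T cells, monocytes and some macrophages. Ms4a1 stood almost alone in B. Ms4a4b led in T and NK labels, and its close copy Ms4a4c in monocytes and some macrophage labels. Ms4a6c and Ms4a6d were held by monocytes, DC_cDC2 and the macrophage labels other than Mac_Cd9, and were low in neutrophils. Ms4a7 was held by 3 macrophage labels, and Ms4a6b had similar levels in T cells and monocytes.

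**Figure D1:**
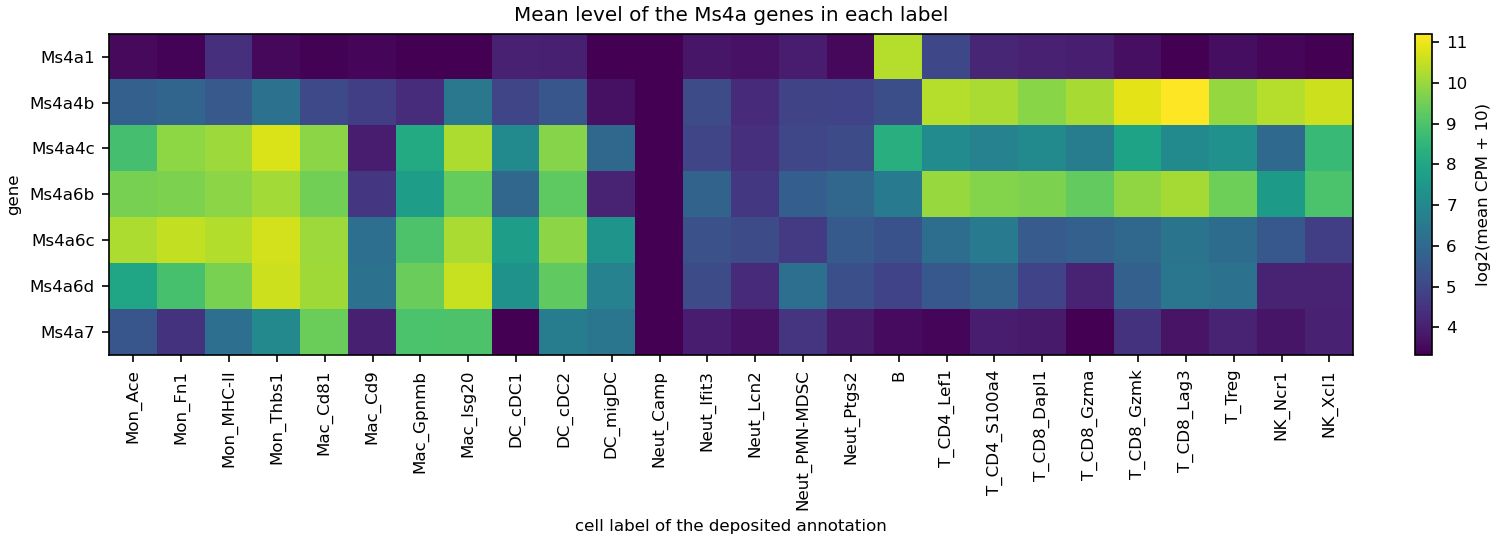
Mean level of the 7 genes (rows) in the 26 cell labels (columns), as the log2 of the mean CPM plus 10, where each mean is over sums of 1 mouse and tissue. Ms4a1 is bright in B alone, Ms4a4b in the T and NK labels, Ms4a6c and Ms4a6d in the monocyte labels and in the macrophage labels other than Mac_Cd9, and Ms4a7 in the same 3 macrophage labels.

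Ms4a1 averaged 1263.2 ± 409 CPM in B (SD, n = 30 sums; lowest 501.4, highest 2038.8). The next labels were T_CD4_Lef1 at 22.39 CPM and the monocyte label Mon_MHC-II at 10.76 CPM, so the step after B was larger than its SD. Both of these means rest mainly on 1 sum: 35 of 46 sums of T_CD4_Lef1 were at 0 and 1 core sum of 12 cells was at 784.2 CPM, and 19 of 23 sums of Mon_MHC-II were at 0 and 1 Normal sum was at 188.9 CPM. With every cell thinned to 500 UMIs, 30.53 ± 8.986% (SD) of B cells held a UMI of Ms4a1, against 0.3781% of T_CD4_Lef1 cells, a type that should lack it. Such shares of cells, here and below, are means over sums. Without thinning the shares were 42.9% and 0.659%, at medians of 1001.0 and 933.5 UMIs per cell. The genes whose log2 levels over the 26 labels were most like those of Ms4a1 were Pax5 (r = 0.970), which encodes the factor that maintains B cell identity, Spib (r = 0.964) and Cacna1i (r = 0.959). Labels share libraries and depth, so these r values, here and below, are descriptions.

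Averaged over all tissues, Ms4a4b was highest in T_CD8_Lag3, which the study names dysfunctional CD8 T cells, at 2348.4 ± 1113.8 CPM (n = 7). This order depends on tissue: T_CD8_Gzmk was at 4991 CPM in Primary (lowest sum 4230), above the highest T_CD8_Lag3 sum of any tissue (3384.2 CPM). Over all tissues T_CD8_Gzmk, the activated CD8 cells and the CD8 label with the most sums, was at 1890.3 ± 1183.5 CPM (n = 45). NK cells followed, at 1540.5 ± 1062.4 CPM in NK_Xcl1 (n = 6) and 1284.7 ± 486.4 CPM in NK_Ncr1 (n = 40). CD4 T cells lay in the same range: 1263.0 ± 642.8 CPM in T_CD4_Lef1 (n = 46), 1170.1 ± 584.5 CPM in T_CD4_S100a4 (n = 27) and 978 ± 441.1 CPM in T_Treg (n = 7). No neighbours in this order differed by more than the larger SD until the step from T_CD8_Dapl1 (885.8 ± 462.2 CPM, n = 9) to Mac_Isg20 (79.93 CPM). A thinned UMI of Ms4a4b was found in 41.54% of T_CD8_Gzmk cells, 2.118% of Mon_Fn1 cells and 1.616% of B cells. Unthinned shares were 54.05%, 6.849% and 3.225%, at medians of 1010.5, 1503.0 and 1001.0 UMIs. The patterns nearest to Ms4a4b were those of Sh2d1a (r = 0.961), the adaptor SAP of T and NK cells, Zap70 (r = 0.960), the kinase of the T cell receptor, and Sla2 (r = 0.955).

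Ms4a4c, although the closest copy of Ms4a4b, was led by the monocyte label Mon_Thbs1. It averaged 1723.5 ± 971.9 CPM in Mon_Thbs1 (n = 25), 1203.1 ± 716.6 CPM in Mac_Isg20 (n = 15), 1041.0 ± 558.6 CPM in Mon_MHC-II (n = 23) and 912.3 ± 408.9 CPM in Mon_Fn1 (n = 54), the monocytes named for fibronectin. Mac_Cd81 (893.8 ± 388.3 CPM) and DC_cDC2 (870 ± 488.4 CPM) were close to Mon_Fn1, and the monocyte label Mon_Ace was lower, at 457.8 ± 321.6 CPM. Ms4a4c was lower but not absent in lymphocytes, with 300.4 ± 184.8 CPM in B, 228.5 CPM in T_CD8_Gzmk and 130.9 CPM in T_CD4_Lef1. The order fell in small steps, none larger than the SD of the neighbours. It also depends on which tissues a label has. Mon_MHC-II lay above Mon_Thbs1 in Primary (1896.2 against 1696.0 CPM), but below it in MET (895.7 against 1850.9 CPM) and cores (600.1 against 1904.9 CPM). Thinned shares were 41.44% in Mon_Thbs1, 9.936% in B and 1.008% in the neutrophil label Neut_Ptgs2, and 64.55%, 16.01% and 2.078% without thinning, at medians of 1744.0, 1001.0 and 944.5 UMIs. The B cell share of Ms4a4c was thus well above that of the neutrophils at like depth. Over the 26 labels, Ms4a4b and Ms4a4c correlated at r = 0.146. The patterns most like Ms4a4c were those of Tor3a (r = 0.912), Fam26f (r = 0.891) and Ifi213 (r = 0.884), which are known as interferon-induced genes.

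**Figure D2:**
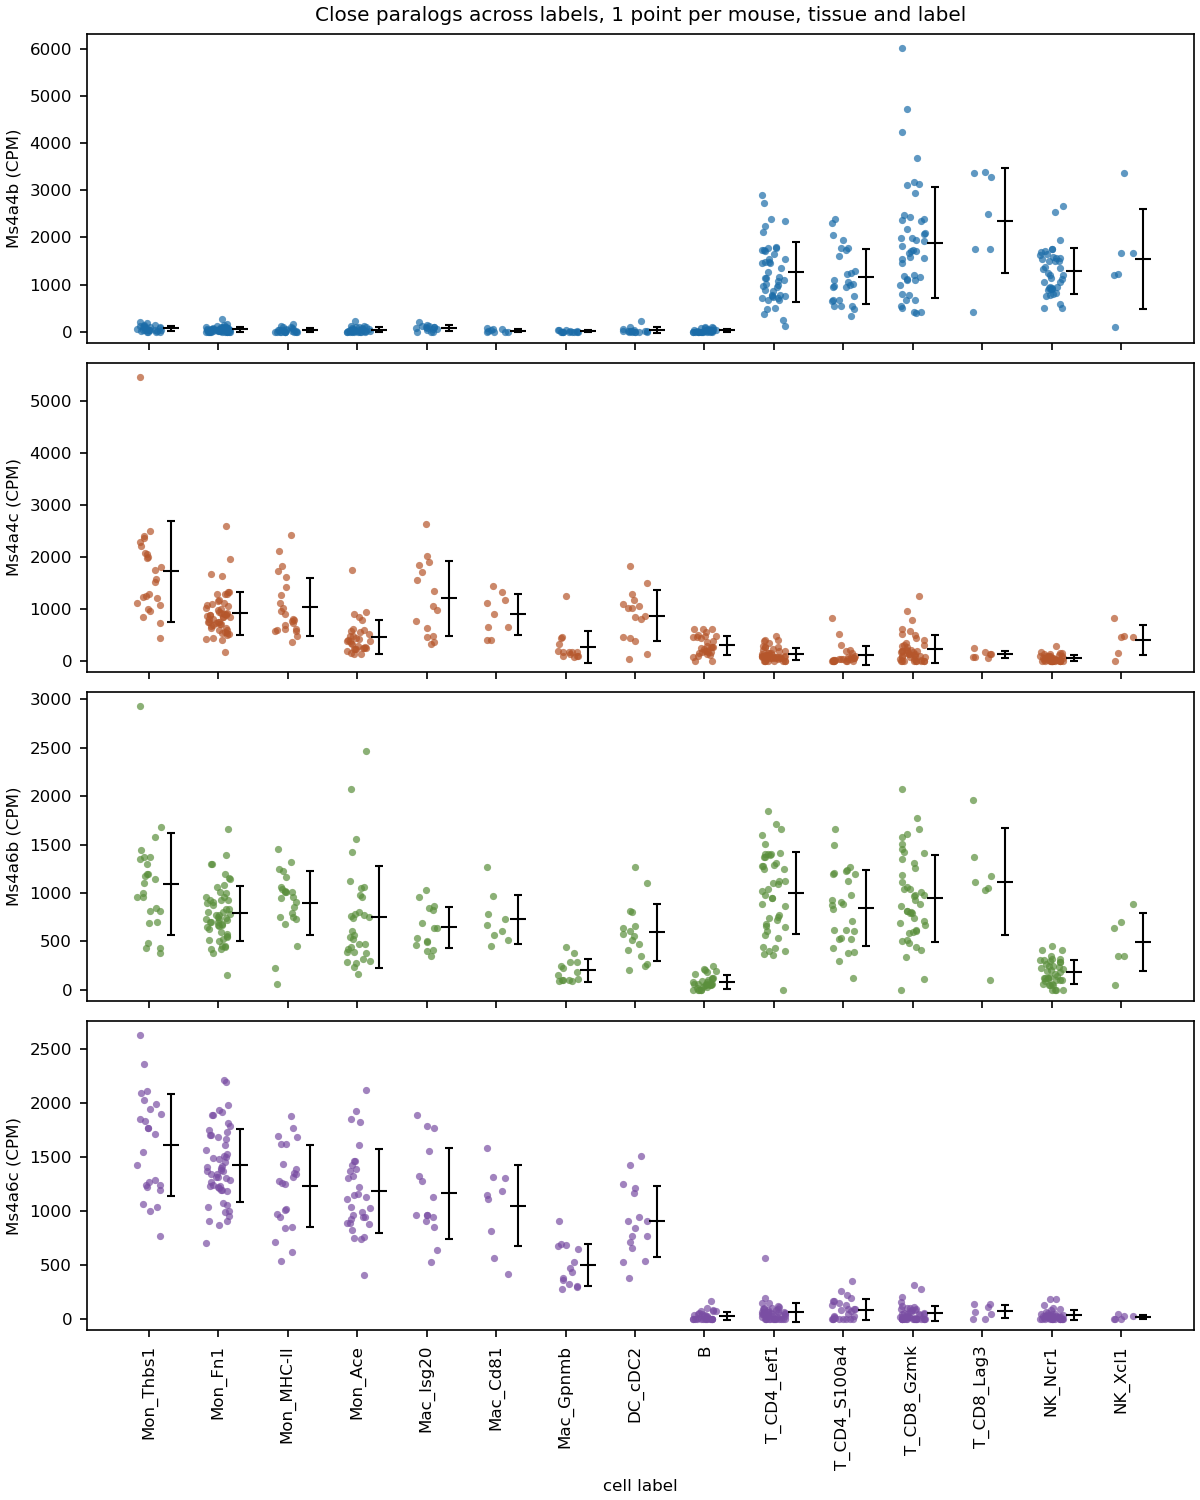
Levels of Ms4a4b, Ms4a4c, Ms4a6b and Ms4a6c in 15 cell labels, in CPM on a linear axis. Each point is a sum of 1 mouse and tissue, and bars are mean ± SD. Ms4a4b is high in T and NK labels. Ms4a4c is high in monocyte labels, though less so in Mon_Ace, and in Mac_Isg20, Mac_Cd81 and DC_cDC2. Ms4a6b is high in T cell and monocyte labels, Mac_Cd81, Mac_Isg20 and DC_cDC2, but not in NK_Ncr1 or B. Ms4a6c is high in monocyte labels, Mac_Isg20, Mac_Cd81 and DC_cDC2, and lower in Mac_Gpnmb.

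Ms4a6b crossed the line between lymphocytes and monocytes. Its highest means were 1115.0 ± 552.2 CPM in T_CD8_Lag3, 1094.0 ± 529.5 CPM in Mon_Thbs1, 1000.4 ± 427.1 CPM in T_CD4_Lef1 and 945.7 ± 446.6 CPM in T_CD8_Gzmk. Mon_MHC-II (899.4 ± 328.9 CPM) and Mon_Fn1 (789.3 ± 283.1 CPM) were within the same spread, and which label came first changed with the cell cutoffs. Other labels held it too: Mac_Cd81 was at 728.6 ± 255.2 CPM, Mac_Isg20 at 644.8 ± 216.2, DC_cDC2 at 593.8 ± 295.1 and NK_Xcl1 at 497.1 ± 301.2 CPM. Ms4a6b was low in NK_Ncr1 (185.1 ± 122.9 CPM) and in B (82.8 ± 70.25 CPM). Thinned shares were 32.28% in Mon_Thbs1, 26.42% in T_CD4_Lef1, 3.365% in B and 2.24% in Neut_Ptgs2, against 57.99%, 36.58%, 6.21% and 3.601% without thinning. Among members it was most like Ms4a4c (r = 0.771) and Ms4a4b (r = 0.658), and less like its own copy Ms4a6c (r = 0.502). Among all 9040 genes compared, Ifi214 (r = 0.898), Ifi213 (r = 0.892) and Fam26f (r = 0.874) were nearest.

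Ms4a6c was a gene of all monocyte labels. It averaged 1612.1 ± 472.1 CPM in Mon_Thbs1, 1422.2 ± 340.1 CPM in Mon_Fn1, 1234.4 ± 381.3 CPM in Mon_MHC-II and 1182.3 ± 388.4 CPM in Mon_Ace. Mac_Isg20 (1166.1 ± 421.7 CPM), Mac_Cd81 (1050.5 ± 377.5 CPM) and the dendritic cells DC_cDC2 (906.9 ± 328.2 CPM) were within 1 SD of their neighbours. With sums of 5 or more cells Mon_MHC-II came first. The first step beyond the SD was to Mac_Gpnmb (499.1 ± 195 CPM), and the next to DC_cDC1 (201.5 CPM). It was at 63.49 CPM in Mac_Cd9, which the study calls alveolar macrophages, and at 37.18 CPM in Neut_Ptgs2, the highest neutrophil label. A thinned UMI of Ms4a6c was found in 41.82% of Mon_Fn1 cells and 2.595% of T_CD4_Lef1 cells (67.06% and 4.749% unthinned). Its nearest patterns were those of Ms4a6d (r = 0.942), Clec4a1 (r = 0.927), a lectin receptor, and Aif1 (r = 0.914), a macrophage calcium-binding protein.

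Ms4a6d, averaged over all tissues, was led by the Mon_Thbs1 monocytes and 2 macrophage labels. It averaged 1559.5 ± 723.2 CPM in Mon_Thbs1, 1486.6 ± 484.7 CPM in Mac_Isg20 and 1083.2 ± 383.7 CPM in Mac_Cd81. Mon_MHC-II (770.6 ± 552.2 CPM) came next, and Mac_Gpnmb (673.3 ± 217.6 CPM) was followed by DC_cDC2 (617.7 ± 494.7 CPM), Mon_Fn1 (473.2 ± 399.4 CPM) and Mon_Ace (244.4 ± 281.5 CPM), each within the larger SD of the label before it. Ms4a6d was low in Mac_Cd9 (68.01 CPM) and in neutrophils, where Neut_PMN-MDSC was highest at 64.06 CPM. With sums of 5 or more cells, or only cells of at least 1000 UMIs, Mac_Isg20 came first. The order also depends on which tissues a label has: in Primary Mon_MHC-II was first, at 1744.2 CPM, before Mon_Thbs1 (1495.0 CPM) and Mac_Cd81 (1295.7 CPM). Thinned shares were 42.04% in Mac_Isg20, 14.03% in Mon_Fn1 and 1.279% in T_CD4_Lef1, against 64.79%, 28.86% and 2.242% without thinning, at medians of 1333.5, 1503.0 and 933.5 UMIs. Its nearest patterns were those of Fcgr1 (r = 0.946), the high-affinity IgG receptor, Ms4a6c (r = 0.942) and Msr1 (r = 0.909), a scavenger receptor.

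Ms4a7 was led by 3 macrophage labels. Means were 675.6 ± 583.4 CPM in Mac_Cd81 (n = 9), 505.7 ± 181.1 CPM in Mac_Isg20 (n = 15) and 493.1 ± 208.1 CPM in Mac_Gpnmb (n = 14), the cells the study calls regulatory macrophages (Mreg). The first place of Mac_Cd81 rests on 4 Primary sums (1274.2 CPM), a tissue with no sums of the other two labels. With all its cells pooled, Mac_Cd81 was at 1085.1 CPM. In MET and cores it was at 227.7 and 176.2 CPM, below Mac_Isg20 (526.1 and 482.4 CPM) and Mac_Gpnmb (467 and 602.2 CPM). The step to Mon_Thbs1 (121.6 ± 139.3 CPM) was larger than the SD, and DC_cDC2 followed at 89.35 CPM. Thinned shares were 20.24%, 16.97% and 16.8% in the 3 macrophage labels and 0.3616% in Mon_Fn1, with 40.76%, 32.05%, 37.25% and 1.169% unthinned, at medians of 2327.0, 1333.5, 1726.0 and 1503.0 UMIs. The nearest patterns were those of C1qc (r = 0.943), a complement subunit made by macrophages, Lgmn (r = 0.915), a lysosomal protease, and C3ar1 (r = 0.903), a complement receptor. Among the members it was most like Ms4a6d (r = 0.833).

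Tissues were compared within a label in 8 pairs that held enough sums, with edgeR's quasi-likelihood fit over all genes that passed a filter on low counts and Benjamini-Hochberg adjustment. Members passed the filter in 27 cases: 5 in Mon_Fn1 from Normal to Pre-MET, 4 from Distal normal tissue to MET and 4 from margin to core, 5 in Mon_Thbs1 from MET Core to Primary, 2 in T_CD4_Lef1 and 2 in T_CD8_Gzmk from Distal normal tissue to MET, 3 in T_CD8_Gzmk from MET Core to Primary and 2 in B from Normal to Primary. At an adjusted p below 0.05 edgeR called 0 of 27, with 6 at an unadjusted p below 0.05, and DESeq2 called 0, with 1 at an unadjusted p below 0.05. The share of all genes called was 0.367% in Mon_Fn1 from Normal to Pre-MET (3273 genes), 0% in both other Mon_Fn1 comparisons (1292 and 538 genes), 1.36% in Mon_Thbs1 (2345 genes), 0% in T_CD4_Lef1 (325 genes), 0% in both T_CD8_Gzmk comparisons (276 and 577 genes) and 7.8% in B (1642 genes). In the same order, edgeR put 442, 18, 24, 333, 14, 6, 105 and 321 of these genes at an unadjusted p below 0.05. DESeq2, fitted without that filter and so over more genes, called 323, 0, 0, 71, 0, 0, 0 and 138. The median log2 fold change of the members that passed the filter was, in that order, -0.29, 0.05, 0.45, -0.18, -0.22, -0.14, 1.20 and 0.17, beside 0.07, -0.02, -0.00, 0.04, 0.03, -0.04, 0.08 and 0.04 over all genes. Because tissue levels were among the values by which the members were chosen, nothing is read from these counts and medians, and the members' differences below are given as fitted sizes without a p.

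**Figure D3:**
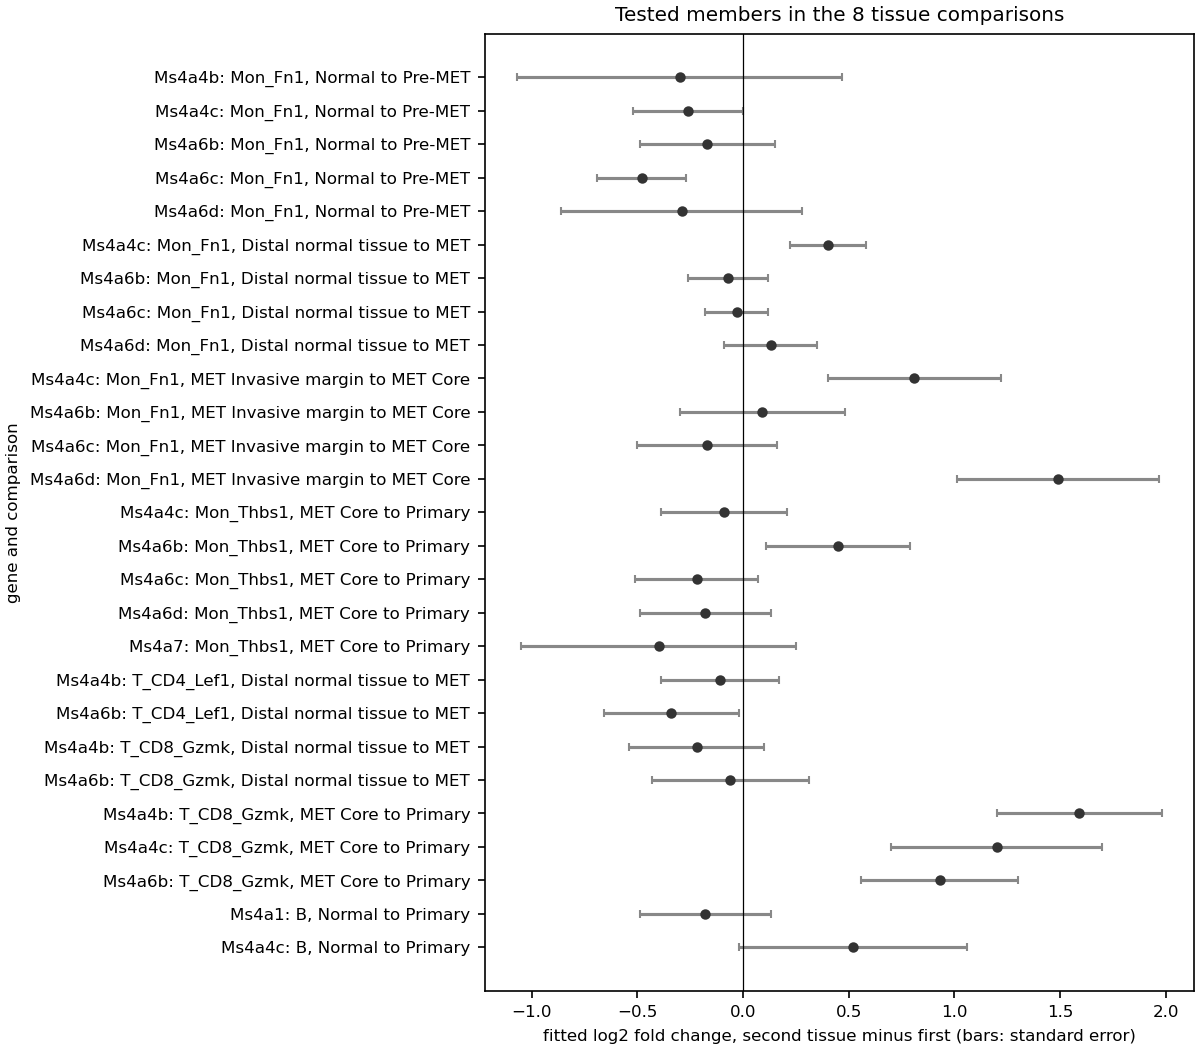
The 27 fitted differences of members as log2 fold change, second tissue minus first, with bars of 1 standard error. The farthest from 0 are Ms4a4b in T_CD8_Gzmk from MET Core to Primary (1.59) and Ms4a6d in Mon_Fn1 from margin to core (1.49).

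In T_CD8_Gzmk, Ms4a4b had its highest values in primary tumors. The 3 Primary sums held 6016.2 CPM (mouse 9), 4229.9 CPM (mouse 10) and 4727.8 CPM (mouse 38). The 11 MET Core sums ranged from 411.8 to 3692.2 CPM, with a median of 1984.4 CPM. The groups did not overlap, as was the case for 2.77% of the 577 genes, of which 0% were called. The means were 4991 ± 921.8 and 1831 ± 928.8 CPM, and the log2 fold change was 1.59 ± 0.39 (SE; 3.01-fold). With whole MET sections (n = 8) in place of cores, a setting added after the data were seen, it was 1.65. These sections were sorted by the same CD31-negative CD45-positive gate as Primary. In the other lung tissues the mean level of Ms4a4b in this label was 1292.3 CPM in Normal, 580.7 CPM in Pre-MET (391.4 to 803.4 CPM), 1675.7 CPM in Relapse-free, 1966.2 CPM in Distal normal tissue, 1719.3 CPM in MET and 1685.7 CPM in the margin.

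The other two members that passed the filter there had higher means in Primary as well. Ms4a6b was at 2078.3, 1579.0 and 1607.7 CPM in Primary, against 411.8 to 1780.2 CPM in cores (median 984.7), with a log2 fold change of 0.93 ± 0.37. Ms4a4c was at 619.8, 507.0 and 952.7 CPM, against 0 to 793.7 CPM (median 273.3), with a log2 fold change of 1.20 ± 0.50. The ranges of both genes overlapped between tissues. All Primary sums of this label came from 1 sequencing batch that held none of the cores, the sort differed and Primary cells were deeper, so tissue, batch and sort cannot be told apart. In cells with at least 1000 UMIs the log2 fold change of Ms4a4b was 1.23 (3 cores). Summed markers of other cells also differed in this label, with neutrophil markers at 19.31 CPM in Primary and 489.3 CPM in cores, NK markers at 1877.2 and 1173.8 CPM and monocyte markers at 4018.1 and 2661.2 CPM, and their part in the result was not tested.

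In T_CD4_Lef1, Primary sums of Ms4a4b were at 1714.5, 2399.3, 1724.3 and 2123.9 CPM, above the 3 Normal sums (779.1, 994.4 and 952.8 CPM) and the 3 Pre-MET sums (713, 772.1 and 675.6 CPM). Such a gap was found for 20.7% of 2266 genes against Normal and 26.8% of 1411 genes against Pre-MET. Primary did not stand above the other tissues, since the highest sum was 2907.6 CPM in Relapse-free, 2735.0 CPM in the margin, 2352.0 CPM in MET and 2238.9 CPM in Distal normal tissue. No test was made of this pattern, which was singled out after the values were seen, and the 3 tissues share no sequencing batch in this label. From Distal normal tissue (753.8 to 2239 CPM, median 1319, n = 10) to MET (mean 1198 CPM, n = 8) its log2 fold change was -0.11 ± 0.28. Ms4a6b went from a mean of 1044 ± 454.5 to 780.4 CPM, with a log2 fold change of -0.34 ± 0.32, and the ranges of 399.1 to 1714.3 and 363.5 to 1656.8 CPM overlapped almost fully. In T_CD8_Gzmk, the Distal normal tissue to MET difference of Ms4a4b was -0.22 ± 0.32 on the log2 scale and that of Ms4a6b was -0.06 ± 0.37. Without the Distal normal tissue sum of mouse 37 these were 0.03 and 0.25, and with sums of 20 or more cells that of Ms4a4b was 0.22, so neither has a direction that holds.

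**Figure D4:**
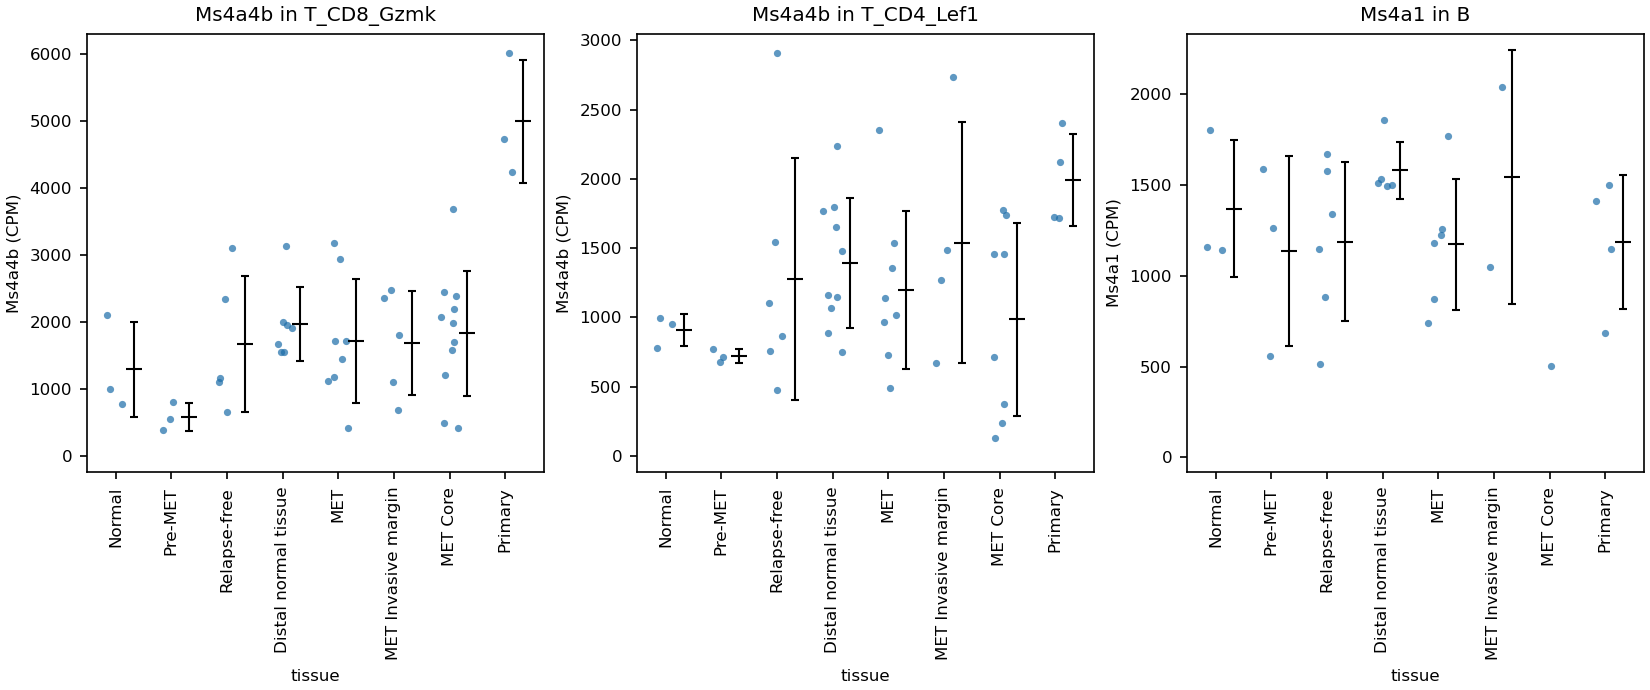
Levels of Ms4a4b in T_CD8_Gzmk and T_CD4_Lef1 and of Ms4a1 in B by tissue, in CPM. Each point is a sum of 1 mouse and tissue, and bars are mean ± SD. The 3 Primary sums of Ms4a4b in T_CD8_Gzmk lie at 4229.9 CPM or above, higher than all cores, while Ms4a1 overlaps between tissues.

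In B, Ms4a1 was at 1157.7, 1801.8 and 1143.0 CPM in Normal lungs and at 681.6, 1146.7, 1413.2 and 1498.2 CPM in primary tumors. The groups overlapped, and the log2 fold change was -0.18 ± 0.31, a sign that turned when certain single sums were left out. The mean of Ms4a1 was 1578.9 ± 154.9 CPM in Distal normal tissue (n = 5), 1544.3 CPM in the margin (n = 2), 1187.6 CPM in Relapse-free, 1172.5 CPM in MET and 1136.2 CPM in Pre-MET. The only core sum, of mouse 17, held 501.4 CPM of Ms4a1, the lowest B value, and also only 501.4 CPM of the whole B marker list. Ms4a4c in B was at 270.6, 283.1 and 387.8 CPM in Normal and at 619.7, 99.54, 608.5 and 485.9 CPM in Primary, with a log2 fold change of 0.52 ± 0.54. Its 3 Pre-MET sums, at 105.3, 124.3 and 152.8 CPM, all lay below the 3 Normal sums, a pattern singled out after the values were seen and without a test. Of 706 genes, 18.8% had no overlap between these groups.

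In Mon_Fn1, Ms4a6d had its highest values in metastasis cores. The 5 margin sums held 546.2 CPM (mouse 17), 295.6 (mouse 26), 270.4 (mouse 28), 206.2 (mouse 31) and 445.2 CPM (mouse 36). The 7 core sums held 1080.0 CPM (mouse 17), 1693.5 (mouse 23), 1996.8 (mouse 24), 1627.2 (mouse 28), 570.8 (mouse 30), 82.8 (mouse 31) and 376.9 CPM (mouse 32). Of the core sums, 5 lay above every margin sum and the others within or below the margin's range. In all, the margin sums held 344 UMIs of Ms4a6d and the core sums 427, so a single value can rest on few UMIs and is uncertain. The means were 1061 ± 737.3 CPM in the core and 352.7 ± 139.2 CPM in the margin, with a log2 fold change of 1.49 ± 0.48. It was 1.77 in cells with at least 1000 UMIs (2 cores), 1.67 with the sequencing batch as a covariate and 1.30 with the mouse as a block (3 mice).

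The cores with high Ms4a6d came from other batches than the low ones, where each sum is given the batch of the largest part of its cells. Batch SB118 held the cores of mice 23, 24 and 28 and the margins of mice 26 and 28, where every core exceeded both margins. Batch SB124 held the cores of mice 31 and 32 and the margin of mouse 31, where 1 core lay above the margin and 1 below. Batch SB112 held both sums of mouse 17, 1080.0 and 546.2 CPM. Without mouse 17, whose margin label is unclear, the log2 fold change was 1.71. Macrophage markers summed to 903.8 CPM in the cores (452.3 to 1663.3) and 723 CPM in the margins (473.2 to 904.9), monocyte markers to 25869.5 and 33217.4 CPM and neutrophil markers to 895.2 and 2470.2 CPM, and their part in the result was not tested. In the other tissues mean Ms4a6d in Mon_Fn1 was 295.9 CPM in Normal, 274.2 in Pre-MET, 325.8 in Relapse-free, 345.7 in Distal normal tissue, 368 in MET and 854.2 ± 267.1 CPM in Primary.

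Ms4a4c in Mon_Fn1 averaged 767.3 ± 240.2 CPM in Distal normal tissue (lowest 165.6, median 810.5, highest 1112.6, n = 13) and 1033 ± 273.5 CPM in MET (lowest 561, median 970.9, highest 1627.8, n = 13). The ranges overlapped, and 11 of 13 MET sums lay above the mean of Distal normal tissue. The log2 fold change was 0.40 ± 0.18. From margin to core it was 0.81 ± 0.41 (608.1 ± 283.5 to 1136 ± 776.8 CPM).

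Ms4a6c in Mon_Fn1 was at 2215.2, 1733.2 and 1891.8 CPM in Normal lungs and at 1699.7, 1193.6 and 1310.5 CPM in Pre-MET lungs. The groups did not overlap, which held for 22.9% of the 3273 genes in this comparison. The log2 fold change was -0.48 ± 0.21, and DESeq2 gave 0.12. The median of the genes fitted was 0.07 for edgeR and 0.38 for DESeq2, which was fitted without the filter on low counts. These medians are over different genes, and why the fits differ was not tested. The Normal sums held between 36474 and 74429 UMIs and the Pre-MET sums between 308317 and 399850, in different sequencing batches, so tissue and batch cannot be told apart.

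In Mon_Thbs1, in which Ms4a4c, Ms4a6c and Ms4a6d had their highest means over sums of 10 or more cells from all tissues, cores and primary tumors overlapped for all 5 members that passed the filter. In Primary alone, Mon_MHC-II lay above Mon_Thbs1 for Ms4a4c (1896.2 against 1696.0 CPM) and Ms4a6d (1744.2 against 1495.0 CPM). Ms4a6d ranged from 837.8 to 2657.6 CPM in 8 cores (median 1804) and was at 1867.8, 959.8, 1804.8 and 1347.7 CPM in Primary, with a log2 fold change of -0.18 ± 0.31. Ms4a4c differed by -0.09 ± 0.30 (1905 to 1696 CPM), Ms4a6b by 0.45 ± 0.34 (1027 to 1356 CPM), Ms4a6c by -0.22 ± 0.29 (1887 to 1505 CPM) and Ms4a7 by -0.40 ± 0.65 on the log2 scale. DESeq2 gave the opposite sign for Ms4a4c, Ms4a6c, Ms4a6d and Ms4a7, so none of these has a direction that holds.

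In other myeloid labels 2 patterns were singled out after the values were seen and carry no test. In Mac_Cd81, Ms4a7 was at 1166.6, 1256.6, 1522.2 and 1151.4 CPM in the 4 primary tumors, but at 269.8 and 185.5 CPM in MET and at 0, 237.7 and 290.8 CPM in cores. The metastasis sums lay below every Primary sum, and 13.7% of 802 genes had no overlap between these groups. Their smaller size (8823 to 44470 UMIs, against 81435 to 672043 in Primary) makes a single low value uncertain. In Mac_Isg20 and Mac_Gpnmb, which had no Primary sum of at least 10 cells, Ms4a7 averaged 526.1 and 467 CPM in MET and 482.4 and 602.2 CPM in cores.

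In Mon_MHC-II, Ms4a6d was at 2010.5, 1411.2, 1654.4 and 1900.6 CPM in Primary. Normal sums were at 302.2, 409.9 and 619.3 CPM, Pre-MET sums at 392, 219.6 and 150.9 CPM, and MET sums at 672.6, 851.2, 372.8 and 920.6 CPM. All 4 Primary sums lay above all of these and above both cores (1301.1 and 910.8 CPM), and also above the other tissues. Of 1390 genes, 1.29% had no overlap between Primary and all other tissues. Ms4a4c in the same label averaged 1896.2 CPM in Primary, 907.6 CPM in Normal and 790.7 CPM in Pre-MET, but its only margin sum, at 2108.6 CPM, lay within the Primary range of 1620.4 to 2412.5 CPM. Of the 4 Primary sums in each of these labels, 3 came from batch SB132, and Primary cells were deeper.

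**Figure D5:**
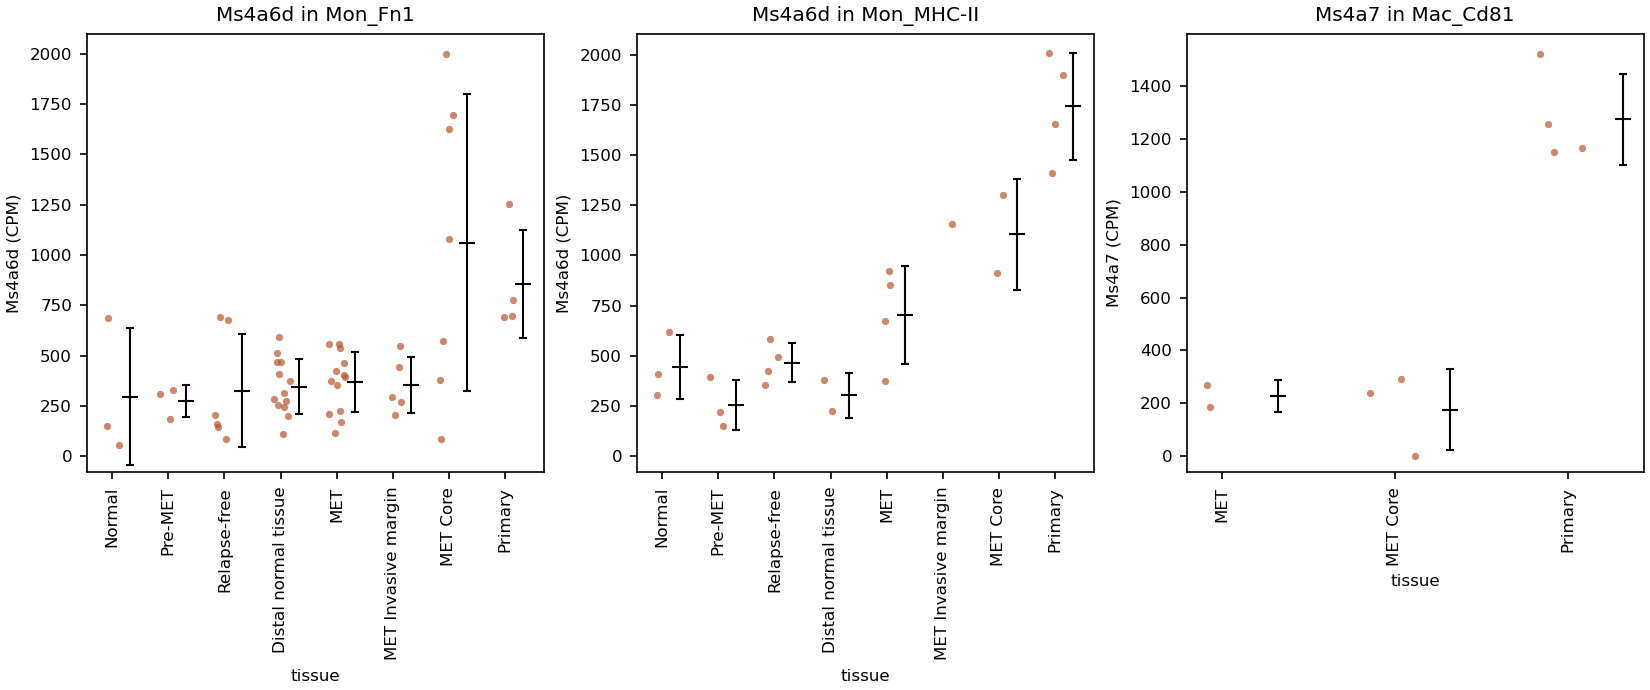
Levels of Ms4a6d in Mon_Fn1 and Mon_MHC-II and of Ms4a7 in Mac_Cd81 by tissue, in CPM. Each point is a sum of 1 mouse and tissue, and bars are mean ± SD. In Mon_Fn1 the 7 cores spread from 82.8 to 1996.8 CPM, and in both other panels the Primary sums lie above the rest.

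The 14 other genes of the family list were mostly too low to follow. Ms4a4a, known from macrophages, was the fullest of them, at 1835.4 ± 913.3 CPM in Mon_Thbs1, 1528.0 ± 1337.3 CPM in Mac_Cd81 and 1284.6 ± 902.5 CPM in Mon_Ace. Ms4a8a led in Mac_Cd9, at 310.8 ± 206.1 CPM, against 84.58 CPM in Mon_Fn1. Tmem176b and Tmem176a led in migratory dendritic cells, DC_migDC, at 538.9 ± 192.5 and 325.5 CPM (n = 3). All 3 of these sums came from Primary, so this lead sets 1 tissue against labels averaged over their own tissues. Each of the other 10 held at most 46 UMIs in all immune cells. EdgeR called 0 of the 14 in any comparison, and 1 or more passed the filter in 4 of 8. Of those, Tmem176b in Mon_Fn1 from Normal to Pre-MET, tissues in different sequencing batches, had a log2 fold change of -1.87. Ms4a4a in Mon_Thbs1 from MET Core to Primary had 0.86 ± 0.33 (1636 to 2879 CPM). Both are given as fitted sizes without a p, as for the members.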

How the data were processed

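SPID-seq single-cell libraries from sorted lung and tumor cells were sequenced on 148 plates of 384 wells (56832 wells, 12 batches). Each deposited table gives, for 1 plate, the UMI counts of every gene in every well, not normalized: per the labels and methods, the authors demultiplexed with bcl2fastq 2.15.0.4, mapped reads to mm10 with HISAT, excluded reads with several mapping positions, assigned reads to exons, merged genes sharing exon positions on a strand, collapsed UMIs, kept cells of at least 500 UMIs and labelled them by clustering. The version of the annotation is not given in the sources used here. None of the 7 rows was merged with another gene. Cells labelled erythrocyte, outlier or tumor (595) were left out, and cells were not clustered again. The 592 wells without a cell held 8490 UMIs in all. Doublets were not searched for.

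Counts were summed per mouse, tissue and label where at least 10 cells were present. Samples were grouped by their tissue label. Fits used edgeR 4.0.16 (R 4.3.3; TMM, filterByExpr, quasi-likelihood F test, no covariate), with Benjamini-Hochberg adjustment over all genes tested. They were also run on simulated data, but with changes larger than any member difference here, which does not speak for changes of the size seen. In all, 88 sums mix sequencing batches, and the batch of a sum is that of the largest part of its cells. Where both tissues came from the same mice, the mouse number pairs them: log2 deviations from the tissue mean correlated within a mouse at a mean r of 0.247 (Mon_Fn1, Distal normal tissue and MET, 12 mice), 0.393 (margin and core, 3 mice), 0.294 (T_CD4_Lef1, 6 mice) and 0.245 (T_CD8_Gzmk, 5 mice). Between mice the mean r was -0.185 to -0.019. Subtracting the tissue mean pushes these values below 0, so they are no independent contrast. Alternatives were DESeq2 1.42.0, RLE scaling, no filter, 20 or more cells, cells of at least 1000 UMIs, batch as a covariate, the mouse as a block and each sum left out. Members and gene lists were chosen with earlier results of these data known. Named other genes are the 3 with the highest Pearson r to a member over 26 labels, on log2(CPM + 10), among genes reaching 50 CPM in a label. Other software was Python 3.11.15, numpy 2.4.6, scipy 1.17.1, Biopython 1.88 and matplotlib 3.10.9. The median sum held 41252 UMIs, so low levels rest on few UMIs and are imprecise.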

Additional observations from a re-analysis of the deposited data

Results flagged for a closer look

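In T_CD8_Gzmk of Distal normal tissue, the sum of mouse 37 held 3137.6 CPM of Ms4a4b, while the other 6 sums lay between 1549.2 and 1992.7 CPM (median of the 7 sums 1914.4). Its gap to the nearest sum was 0.721 of the group's range. It is given because it stands apart from the others, as a description and not as a test, and it was the only such value among 28 groups screened, where chance alone singles out about 1 in 20. This sum held 12 cells and 22310 UMIs.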

How the results depend on the processing

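Of 259 alternatives for the 27 member results, 39, spread over 17 of the results, reversed the direction of a difference and the others kept it. In 3 of those that kept it a member was called at an adjusted p below 0.05, from which nothing is read, as for the counts above. These are fitted log2 fold changes, given as a description. In Mon_Fn1 from Normal to Pre-MET the median of the genes fitted was 0.07 in the main fit, 0.38 by DESeq2 and 1.33 with no filter. The last of these and DESeq2 did not leave out genes of low counts before the fit, so the medians are over different genes. There DESeq2 gave 0.28 for Ms4a4b, 0.34 for Ms4a4c, 0.44 for Ms4a6b, 0.12 for Ms4a6c and 0.37 for Ms4a6d. No filter gave 0.04, 0.09, 0.18 and 0.07 for Ms4a4b, Ms4a4c, Ms4a6b and Ms4a6d. Leaving out 1 sum each gave -0.79 to 0.78 for Ms4a4b, -0.36 to 0.06 for Ms4a4c, -0.35 to 0.23 for Ms4a6b (the 3 highest without Normal 1) and -0.62 to 1.47 for Ms4a6d (highest without Normal 2). In Mon_Fn1 from Distal normal tissue to MET, Ms4a6c was 0.02 at 1000 UMIs and Ms4a6b 0.01 with batch. From margin to core, Ms4a6b was -0.26 by DESeq2 and -0.05 without filter, and Ms4a6c 0.09 at 1000 UMIs and 0.11 with batch. In Mon_Thbs1, DESeq2 gave 0.27, 0.19, 0.24 and 0.15 for Ms4a4c, Ms4a6c, Ms4a6d and Ms4a7, no filter 0.06 and 0.01 for Ms4a4c and Ms4a6d, 20 cells 0.21 for Ms4a7, 1000 UMIs 0.02 for Ms4a4c, leaving out 1 sum -0.13 to 0.00 for Ms4a4c, and MET sections in place of cores (added after seeing the data) 0.11, 0.12 and 0.04 for Ms4a4c, Ms4a6c and Ms4a6d. Ms4a4b was 0.37 in T_CD4_Lef1 at 1000 UMIs. In T_CD8_Gzmk from Distal normal tissue to MET it was 0.22 at 20 cells and 0.03 without mouse 37, where Ms4a6b was 0.25 (added after seeing the data). Ms4a1 in B ranged from -0.29 to 0.17 over the sums left out (0.17 without Normal 2, 0.09 without Primary 8). The cause was not tested.

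With the mouse as a replicate block, 0 of 12 member results and 0 genes in the 4 comparisons were called, as without it, and Ms4a6b (0.01) and Ms4a6c (0.00) in Mon_Fn1 from Distal normal tissue to MET reversed. Counts of genes called moved from 12 to 323 (DESeq2; 314 higher and 9 lower, against 10 and 2), 85 (no filter; 65 and 20), 7 (1000 UMIs) and 2 to 28 (1 sum left out) in Mon_Fn1 from Normal to Pre-MET. From margin to core they moved from 0 to 1 (no filter), 3 (20 cells), 11 (1000 UMIs) and 2 (batch). In Mon_Thbs1 they moved from 32 to 71 (DESeq2; 57 and 14, against 16 and 16), 49 (no filter), 74 (20 cells), 15 (1000 UMIs), 0 (batch), 4 (MET sections) and 0 to 28 (0 without Primary 10). In T_CD8_Gzmk they moved from 0 to 1 from Distal normal tissue to MET (20 cells), and from 0 to 24 (no filter) and 4 (MET sections) from core to Primary. In B they moved from 128 to 67 to 133 (67 without Normal 1), with 73 higher and 65 lower by DESeq2, against 54 and 74.

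The mean level in each gene's leading label moved by less than 1 SD under all 35 alternatives, although the SD of Ms4a7 in Mac_Cd81 is wide and pooling all cells moved it from 675.6 to 1085.1 CPM, and another label came first for Ms4a6b, Ms4a6c and Ms4a6d under some of them. Fits with 20 cells in T_CD8_Gzmk from core to Primary, with 1000 UMIs from Distal normal tissue to MET, and with batch where no batch was shared could not be made.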
